A study of Mus musculus with 12 samples.

Results

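The integrin subunits examined here were Itga1, Itga3, Itga4, Itga5, Itga6, Itga7, Itga11, Itgav, Itgb1 and Itgb5, the chains of the laminin, fibronectin, vitronectin and collagen receptors. They were chosen by name with earlier results of these data known, as were the related gene lists used below. A transcript cluster of the array was used where it was annotated to exactly 1 of the 10 symbols. Each of the 10 genes had 1 such cluster, out of 21789 clusters with a single symbol for 19938 genes. In these data Itga6 was the subunit with the widest range between groups. Of the 10 subunits 5 were called lower with the p38 inhibitor, where 3.87% of all clusters were. With both agents Itga5, Itga6 and Itga7 were called above their SB level, where 4.4% of all clusters were. Itgb1 was not called above its SB level, and whether its rise differed from theirs was not tested.

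The cells were C2i-Myog, a stable derivative of the mouse myoblast line C2C12 that carries a doxycycline-inducible cDNA for Flag-tagged Myog, a transcription factor of muscle differentiation. All 4 groups carried this transgene and were placed in differentiation medium with 1% horse serum, insulin and transferrin for 48 h, with 3 arrays in each group. The control group had neither agent, the Dox group doxycycline at 0.2 µg/mL, the SB group 10 µM of SB203580, which inhibits the kinases p38α and p38β, and the SB+Dox group both. The design asked what each pathway contributes to myogenesis. Doxycycline was never given to cells lacking the transgene, so its own effect and that of exogenous Myog cannot be told apart. The control arrays' own label does not mention differentiation, and their 48 h in this medium is taken from the treatment protocol given with every sample. The labels do not say whether the line is 1 clone or whether replicates were separate cultures, and a p-value here is set by the spread among these arrays alone, which may be technical.

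Integrins are receptors of the cell surface made of 1 α and 1 β chain, which bind the extracellular matrix outside the cell and, through talin and other linkers, the actin cytoskeleton inside it. The β chain Itgb1 pairs with each α chain among the 10, whereas Itgb5 pairs with Itgav alone. In skeletal muscle Itga7 with Itgb1 is the main laminin receptor of the fibre, found at the myotendinous junction and at costameres, and Itga6, Itga5 and Itga4 belong to the receptors of myoblasts.

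The loci are given on GRCm38.p6 as RefSeq places them. The sources used here do not give the build behind the array's own annotation. Itga6 lies at chr2:71786886-71858427, Itga7 at chr10:128933421-128958286, Itga5 at chr15:103344286-103366791, Itgb1 at chr8:128685654-128733579, Itgb5 at chr16:33829665-33949338 and Itga3 at chr11:95044475-95076844. Itgav lies at chr2:83722303-83806917, Itga4 at chr2:79255426-79333114, Itga1 at chr13:114958079-115101964 and Itga11 at chr9:62677855-62783979. A cluster summarises probes along its gene, so splice forms such as the cytoplasmic variants of Itga6 and Itga7 were not resolved.

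RefSeq promoter windows of 300 bases were matched for 8 of the 10 genes, each with 250 bases before a start site and 50 after it. That site is the start of the locus given above for all of them except Itgav, whose site lies inside the locus, and Itga3, which has 2 windows with both sites inside it. The windows of Itga5, Itgb1 and Itgb5 are shown because these are the subunits with a window that were lower with the inhibitor. Capitals mark the E-box CAGCTG, bound by Myod1 and Myog, the M-CAT element CATTCC of TEAD factors or the AP-1 element TGANTCA, each searched on both strands.
Itga5 (chr15:103366742-103367041, minus strand): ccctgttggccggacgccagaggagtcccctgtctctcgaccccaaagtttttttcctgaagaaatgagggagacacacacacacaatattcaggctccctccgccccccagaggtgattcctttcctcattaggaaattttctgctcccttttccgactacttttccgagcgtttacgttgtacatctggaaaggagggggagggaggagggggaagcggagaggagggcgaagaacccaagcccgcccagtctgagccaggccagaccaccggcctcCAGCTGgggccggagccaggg
Itgb1 (chr8:128685404-128685703, plus strand): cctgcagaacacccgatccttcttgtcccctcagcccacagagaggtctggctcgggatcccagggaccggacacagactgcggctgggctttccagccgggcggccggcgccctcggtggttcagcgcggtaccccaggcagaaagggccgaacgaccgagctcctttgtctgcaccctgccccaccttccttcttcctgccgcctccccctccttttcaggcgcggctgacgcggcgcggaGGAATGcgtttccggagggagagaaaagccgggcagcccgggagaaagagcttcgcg
Itgb5 (chr16:33829415-33829714, plus strand): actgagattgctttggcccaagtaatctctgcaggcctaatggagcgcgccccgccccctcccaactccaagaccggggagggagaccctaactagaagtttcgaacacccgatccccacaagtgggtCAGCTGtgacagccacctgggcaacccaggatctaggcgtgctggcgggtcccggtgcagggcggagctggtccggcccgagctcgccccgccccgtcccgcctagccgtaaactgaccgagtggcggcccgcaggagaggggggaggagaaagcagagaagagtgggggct
The Itga5 window held CAGCTG with its first base at position 30 from the start, and the Itgb5 window held it with its first base at position -122. The Itgb1 window held GGAATG, which is CATTCC read on the other strand, with its first base at position -7. No AP-1 match was found in these 3 windows. CAGCTG was thus present for 2 of the 3 subunits that were lower with the inhibitor and had a window, and it was also present for 2 of the 5 others with one, Itga1 at position -163 and Itga4 at -125. CATTCC was in none of those 5, and TGANTCA was in an Itga3 window at position 13. Among all 32851 mouse promoter windows of this length, CAGCTG was present in 16.3%, CATTCC in 14.7% and TGANTCA in 7.81%. A match describes the letters of the window and is not a measured binding site.

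Values are log2 signals as deposited, and a change is the difference of 2 group means on that scale, given with its standard error (SE). Arrays have no depth. The precision of a change rests on the 3 arrays per group and on 1 spread per cluster. That spread was pooled over all 12 arrays, so leaving out an array also alters p-values between other groups. The p-values come from 1 limma fit, adjusted over all 21789 clusters by the Benjamini-Hochberg method, and a change was called where the adjusted p was under 0.05. Array medians lay between 4.86 and 5.06, and replicates correlated across clusters with coefficients from 0.982 to 0.993. On the second principal component SB replicate 3 scored -8.47 where SB replicates 1 and 2 scored 20.26 and 11.74, and on the third it scored 15.15 where they scored -11.44 and -7.72. It was the highest SB array for 5 of the 10 subunits (Itga3, Itga6, Itga7, Itgav and Itgb1) and the lowest for Itga1, Itga4 and Itga11.

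Myog, the gene the transgene encodes, had mean signals of 9.91 ± 0.26 (SD, n = 3) in control and 10.37 ± 0.05 in Dox cells. With the inhibitor it was at 7.70 ± 0.68 in SB and 8.33 ± 0.30 in SB+Dox. Its rise with doxycycline did not pass the test, at 0.46 without the inhibitor (adjusted p = 0.467) and 0.64 with it (adjusted p = 0.157). Groups are therefore named by the agent added and not by a Myog level. The sources used here do not say whether these probes see the transgene. The muscle intermediate filament gene Des, a marker of the myogenic lineage, measured 11.33 ± 0.22 in control and between 11.13 and 11.45 on average in the other groups, with no call.

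Marker lists of muscle cell states also differed between the groups. The mean level of 12 differentiation markers was lowest on the SB arrays (8.33 to 8.99), between 9.34 and 9.67 on the SB+Dox and 9.38 and 9.65 on the control arrays, and highest on the Dox arrays (9.67 to 10.04). The mean level of 9 cycling markers was lowest on the Dox arrays (5.07 to 5.32) and highest on the SB arrays (7.09 to 7.32), with the control arrays at 6.23 to 6.76 and the SB+Dox arrays at 5.99 to 6.60. Of the differentiation list 6 genes were lower in SB than in control and 6 higher in SB+Dox than in SB, and all 9 cycling genes changed the opposite way in both comparisons. In SB+Dox 2 differentiation genes were higher and 2 lower than in control, and 3 were lower than in Dox. In Dox 2 were higher than in control. All 9 cycling genes were also lower in Dox than in control and higher in SB+Dox than in Dox. Myoblast markers averaged 8.90 to 9.07 on the control, 8.79 to 8.95 on the Dox, 8.63 to 8.77 on the SB and 8.75 to 8.79 on the SB+Dox arrays. Of these 8 markers 4 were lower and 1 higher in SB than in control, and 3 were lower in SB+Dox than in control. The mean of 6 reserve cell markers was lower on the Dox arrays (5.71 to 5.75) than on the control arrays (6.14 to 6.15), with 3 of 6 called, and it was 6.25 to 6.32 on the SB and 5.90 to 6.03 on the SB+Dox arrays. Of all clusters 6.38% were called in SB against control, 7.11% in SB+Dox against SB and 5.31% in Dox against control. The share was 10.4% in SB+Dox against Dox and 5.26% in SB+Dox against control. The part of these lists in the integrin results was not tested. In RNA from whole cultures, fewer cells of a type and less RNA per cell cannot be told apart. All 8 macrophage, all 5 fibroblast and all 6 adipocyte markers lay below the median cluster mean of 5.35, as did 6 of 7 endothelial, 5 of 6 epithelial and 3 of 4 Schwann cell markers.

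**Figure D1:**
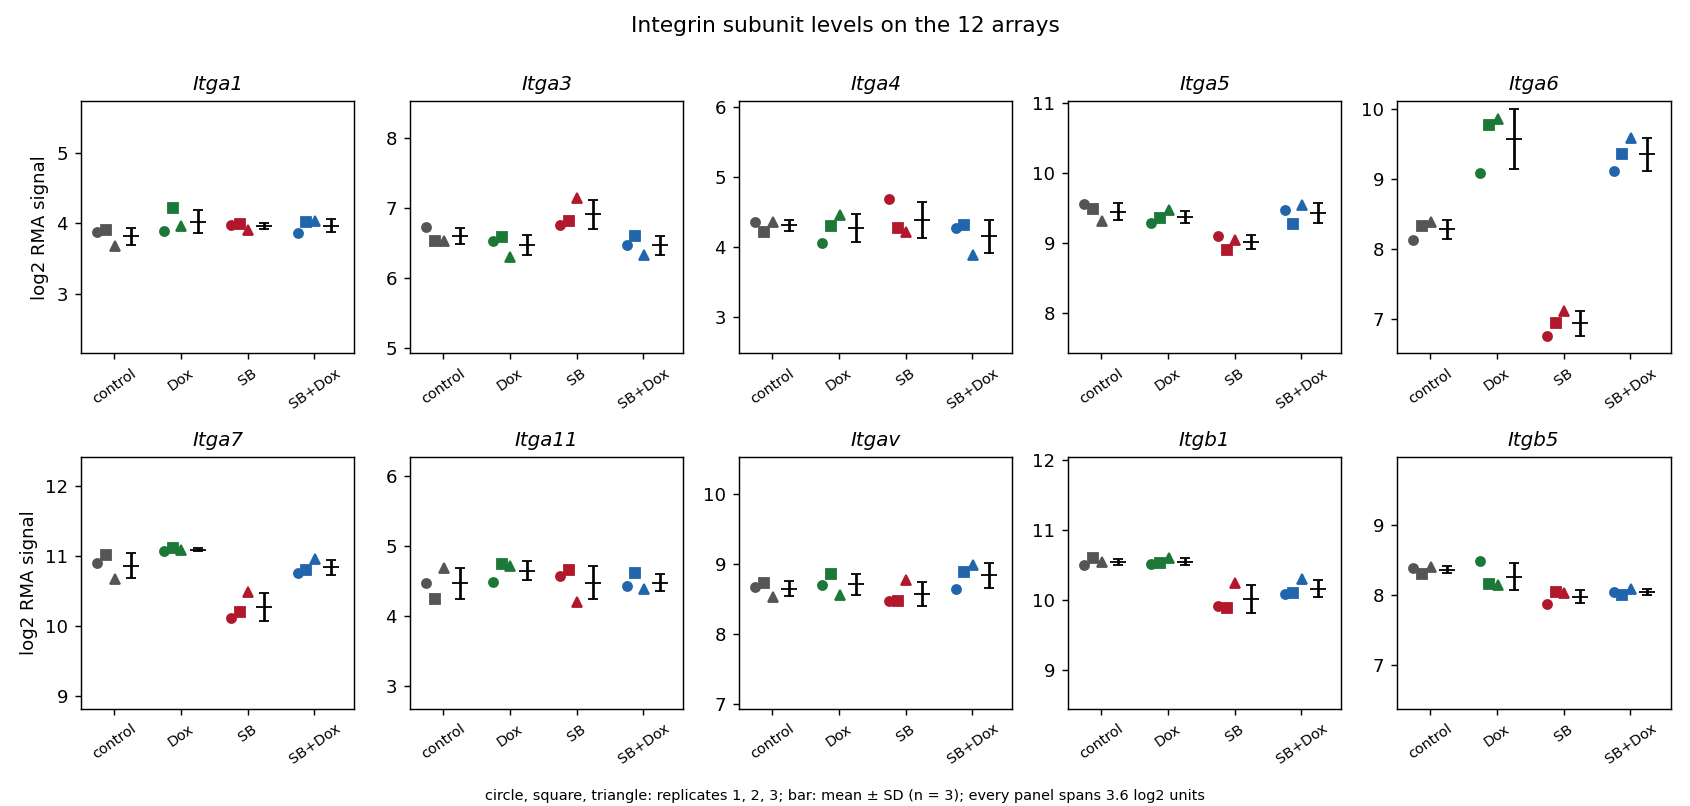
Log2 signal of each integrin subunit (vertical axis) in the 4 groups (horizontal axis). Circles, squares and triangles are replicates 1, 2 and 3, bars are the mean ± SD of 3 arrays, and every panel spans the same number of log2 units. Itga6 covers the widest range, from 6.76 on an SB array to 9.86 on a Dox array, while Itga1, Itga4 and Itga11 stay between 3.67 and 4.75.

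The laminin receptor chain Itga6, known from epithelia and from satellite cells of muscle, fell with the inhibitor and rose with doxycycline whether or not the inhibitor was present. Its signals were 8.13, 8.33 and 8.39 in control, 9.09, 9.77 and 9.86 in Dox, 6.76, 6.95 and 7.11 in SB and 9.12, 9.35 and 9.59 in SB+Dox. Every SB array lay below every control array and every Dox and SB+Dox array lay above the control arrays, while Dox and SB+Dox overlapped. The inhibitor lowered Itga6 below control 2.53-fold (log2 change -1.34, SE 0.18, adjusted p = 3.41e-04). With doxycycline it was 2.45-fold higher than in control (1.29, SE 0.18, adjusted p = 4.64e-04). In SB+Dox it was 5.33-fold higher than in SB (2.41, SE 0.18, adjusted p = 1.17e-05).

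Adding doxycycline to the inhibitor brought Itga6 above the control level. SB+Dox exceeded control 2.1-fold (1.07, SE 0.18, adjusted p = 0.00216), and its difference from Dox was -0.22, with a 95% interval from -0.60 to 0.16 (adjusted p = 0.568). These 4 calls held under all 22 alternative settings. The order of its levels was SB, control, SB+Dox and Dox, and only the last pair of neighbours did not differ past the test. The doxycycline change was larger with the inhibitor than without it by 1.12 (SE 0.25, unadjusted p = 4.86e-04), which missed the threshold at an adjusted p of 0.0526. It passed under 8 of 21 alternatives and missed the threshold under the rest. Over the 21 it ran from 0.88 to 1.27, with adjusted p from 0.00318 to 0.208. Among the 8 were the fits without SB replicate 3 (1.21, adjusted p = 0.0386) and without Dox replicate 3 (1.27, adjusted p = 0.0433). Another was a fit with a block for the replicate number (adjusted p = 0.00318).

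Itga7, the laminin receptor chain of differentiated muscle, fell with the inhibitor and returned to the control level with doxycycline. It measured 10.90, 11.01 and 10.66 in control, 11.07, 11.11 and 11.08 in Dox, 10.12, 10.20 and 10.48 in SB and 10.75, 10.80 and 10.95 in SB+Dox. The SB arrays were below all 9 others, and the SB+Dox arrays lay within the range of the control arrays. Itga7 was 1.51-fold below control in SB (-0.59, SE 0.11, adjusted p = 0.00536) and 1.48-fold higher in SB+Dox than in SB (0.56, SE 0.11, adjusted p = 0.00710), and both calls held under all 22 alternatives.

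SB+Dox and control differed in Itga7 by -0.03, with a 95% interval from -0.27 to 0.22. All 3 Dox arrays lay above the control arrays, but the change of 0.23 did not pass the test (adjusted p = 0.400). SB+Dox lay below Dox on all arrays by 0.25 (adjusted p = 0.219). In the order SB, SB+Dox, control and Dox only the first pair of neighbours differed past the test. The interaction, which is the change from SB to SB+Dox minus that from control to Dox, was 0.34 (SE 0.16, adjusted p = 0.448).

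Itga3, a laminin receptor chain best known from epithelia, had its highest signals in SB, where those of Itga6 and Itga7 were lowest. Its signals were 6.73, 6.53 and 6.53 in control, 6.54, 6.58 and 6.31 in Dox, 6.77, 6.82 and 7.15 in SB and 6.48, 6.61 and 6.33 in SB+Dox. The SB arrays were above all others and SB replicate 3 was the highest. The difference from control was 0.32 (SE 0.12, unadjusted p = 0.0201) and did not pass after adjustment (adjusted p = 0.169). In SB+Dox it was 1.36-fold lower than in SB (-0.44, SE 0.12, adjusted p = 0.0375). That call was lost without SB replicate 3 (-0.33, adjusted p = 0.0832), SB replicate 2 (0.0669), SB+Dox replicate 1 (0.0880), SB+Dox replicate 3 (0.180) or Dox replicate 1 (0.0508), and with median centring (0.122). No neighbours in the order SB+Dox, Dox, control and SB differed past the test.

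Itgb1, the β chain shared by the laminin, fibronectin and collagen receptors, fell with the inhibitor and showed no called return with doxycycline. It measured 10.51, 10.60 and 10.54 in control and 10.52, 10.53 and 10.61 in Dox, a spread of 0.05 (SD) in each. The signals were 9.92, 9.89 and 10.24 in SB and 10.10, 10.11 and 10.30 in SB+Dox. All 6 arrays with the inhibitor lay below all 6 without it, and within each of these sets the groups overlapped. Itgb1 was 1.45-fold below control in SB (-0.53, SE 0.10, adjusted p = 0.00617), a call that held under all 22 alternatives.

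Between SB and SB+Dox Itgb1 differed by 0.15, with a 95% interval from -0.07 to 0.38 (adjusted p = 0.444), and without SB replicate 3 by 0.27 (adjusted p = 0.0858). Same-numbered arrays of these groups varied together, and within the 3 pairs SB+Dox was above SB each time, by 0.18, 0.21 and 0.06, though the change was not called with the replicate number as a block either (adjusted p = 0.352). Whether it differed from the rise of Itga5, Itga6 or Itga7 was not tested. Dox and control differed by 0.01, with an interval from -0.22 to 0.23. Its level in SB+Dox was 1.31-fold below that in Dox (-0.39, SE 0.10, adjusted p = 0.0273), and the call was lost without any 1 of the Dox arrays or without SB+Dox replicate 1 or 2 (adjusted p from 0.0592 to 0.111) and with median centring (0.102). Against control SB+Dox was lower 1.30-fold (-0.38, SE 0.10, adjusted p = 0.0497), and only leaving out SB replicate 1 or SB replicate 3 kept that call among the 12 arrays (otherwise adjusted p from 0.0507 to 0.173). With median centring it was also lost (0.151). In the order SB, SB+Dox, control and Dox, only SB+Dox and control differed past the test.

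Itga5, the fibronectin receptor chain, was low in SB alone. It measured 9.56, 9.49 and 9.32 in control, 9.30, 9.37 and 9.47 in Dox, 9.11, 8.90 and 9.05 in SB and 9.48, 9.27 and 9.55 in SB+Dox. All 3 SB arrays lay below the other 9, which overlapped. Itga5 was 1.35-fold below control in SB (-0.44, SE 0.10, adjusted p = 0.0198) and 1.33-fold higher in SB+Dox than in SB (0.41, SE 0.10, adjusted p = 0.0243).

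The first Itga5 call ended when control replicate 1 or 2 was left out (adjusted p = 0.0954 and 0.0726), or SB replicate 2 (0.102). The second ended without SB replicate 2 (0.115), SB+Dox replicate 1 (0.0810) or SB+Dox replicate 3 (0.133) and with quantile normalisation (0.0695). SB+Dox and control differed by -0.02, with a 95% interval from -0.24 to 0.20. In the order SB, Dox, SB+Dox and control only SB and Dox differed past the test (adjusted p = 0.0246). The interaction was 0.49 (SE 0.15, unadjusted p = 0.00458, adjusted p = 0.172).

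The vitronectin receptor chains Itgb5 and Itgav, partners in 1 receptor, differed in their values. Itgb5 measured 8.39, 8.30 and 8.40 in control, 8.49, 8.16 and 8.15 in Dox, 7.87, 8.04 and 8.03 in SB and 8.05, 8.01 and 8.10 in SB+Dox. All 6 arrays with the inhibitor were below all 6 without it, as with Itgb1. It was 1.30-fold below control in SB (-0.38, SE 0.10, adjusted p = 0.0340), which did not pass without any 1 of the control arrays (adjusted p from 0.0671 to 0.112) or without SB replicate 1 (0.127) or 2 (0.0720).

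SB+Dox lay below control in Itgb5 by 0.31 (adjusted p = 0.103) and below Dox by 0.22 (adjusted p = 0.241), without passing. Between SB and SB+Dox the difference was 0.07, with a 95% interval from -0.14 to 0.29. Itgav measured 8.67, 8.73 and 8.52 in control, 8.70, 8.85 and 8.56 in Dox, 8.47, 8.47 and 8.77 in SB and 8.64, 8.87 and 8.99 in SB+Dox. All 4 groups of Itgav overlapped, SB with the others only through SB replicate 3, and none of its changes was called. The largest was 0.27 in SB+Dox against SB (95% interval from 0.01 to 0.52, adjusted p = 0.220). Over 22 alternatives it ran from 0.18 to 0.37 (adjusted p from 0.0535 to 0.59) and was never called. In the same-numbered pairs that change was 0.17, 0.41 and 0.22, and with the block it was not called (adjusted p = 0.202). No neighbours in the order of either gene's levels differed past the test.

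Itga4, the α chain that binds Vcam1 and fibronectin, ran from 3.88 to 4.68 over the 12 arrays. The collagen receptor chain Itga1 ran from 3.67 to 4.22, and Itga11, a receptor chain for fibrillar collagens, from 4.21 to 4.75. These 3 clusters lay below the median cluster mean of 5.35, and no background level was measured, so they are not shown to be above background. None of their changes was called, with lowest adjusted p-values of 0.392, 0.384 and 0.504 and largest differences between groups of 0.23, 0.21 and 0.18. No neighbouring groups differed past the test in any of these genes. The collagen-binding α chains among the 10 subunits, Itga1 and Itga11, were thus dim in these cultures.

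**Figure D2:**
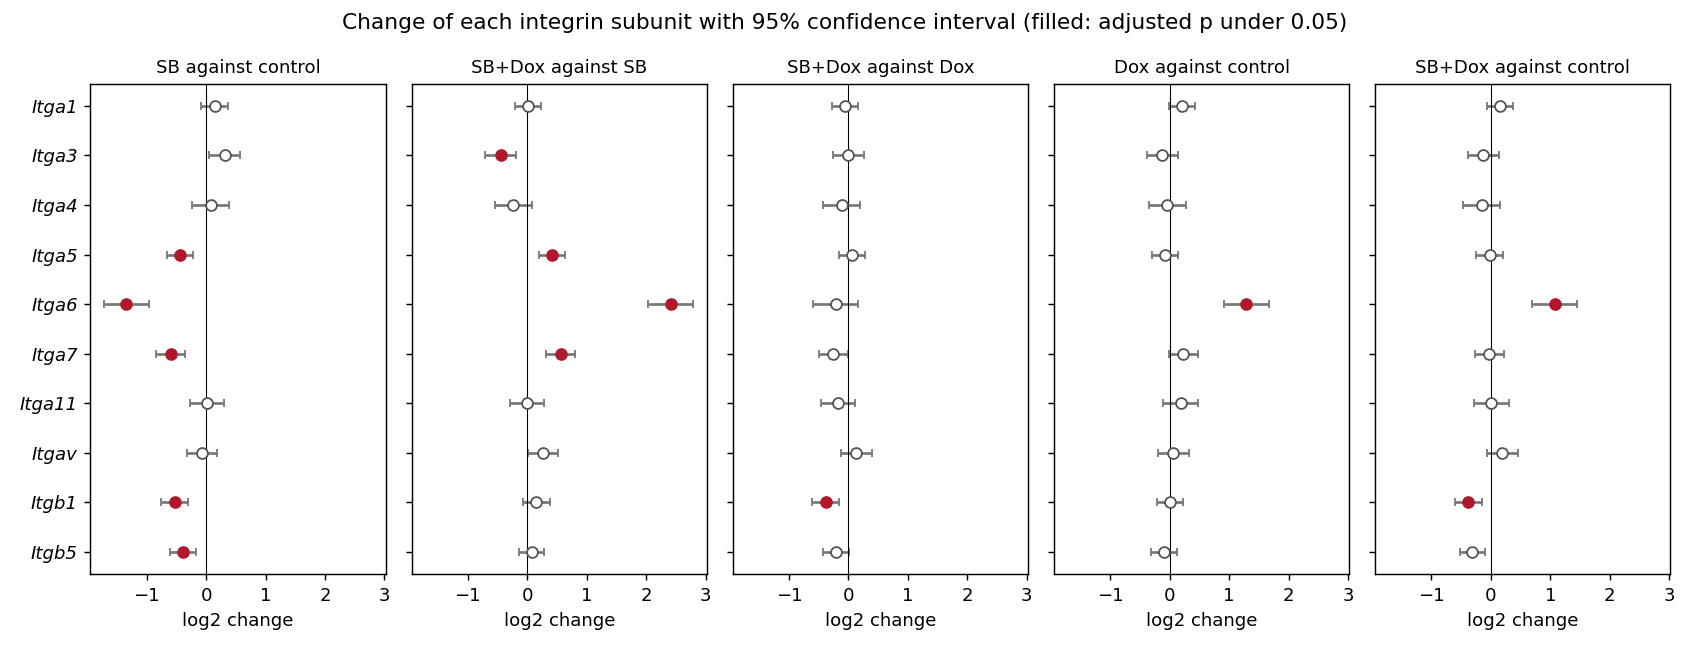
Log2 change of each integrin subunit (horizontal axis) in 5 comparisons, with 95% confidence intervals from the limma fit and filled points where the adjusted p was under 0.05. The filled points of SB against control all lie below 0, and Itga6 is filled in 4 of the 5 panels.

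Counted over the 10 subunits, SB against control gave 5 lower and 0 higher. Among all clusters 6.38% were called in this comparison, 3.87% lower and 2.51% higher. The 5 called subunits lay at percentiles 90.1 to 99.5 of mean signal, and the share among clusters as bright was not counted. The 10 were also chosen with earlier results of these data known. The median change of the 10 was -0.23, beside 0.03 for all clusters. The count was 3 without control replicate 1, without control replicate 2 or without SB replicate 2, when Itga6, Itga7 and Itgb1 were the ones still called. Without SB replicate 3 it was 5.

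SB+Dox against SB gave 3 higher (Itga6, Itga7, Itga5) and 1 lower (Itga3), where 7.11% of all clusters were called, 4.4% higher and 2.71% lower. The median change was 0.11 beside -0.04 for all clusters. The count of 4 became 3 without SB replicate 3, and 2 without SB replicate 2, SB+Dox replicate 1 or SB+Dox replicate 3. This comparison shares its SB arrays with SB against control, so the 2 sets of changes are not independent.

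SB+Dox against Dox gave 1 subunit, Itgb1, lower, where 10.4% of clusters were called, 6.97% higher and 3.43% lower. Dox against control gave 1, Itga6, higher, where 5.31% were called, 1.43% higher and 3.88% lower. SB+Dox against control gave Itga6 higher and Itgb1 lower, where 5.26% were called, 2.84% higher and 2.42% lower. In SB+Dox against Dox 1 of 10 is close to the share of all clusters, and in the other comparisons 1 or 2 of 10 are too few to set against it. Medians of the 10 changes were -0.14, 0.03 and -0.02, beside -0.03, 0.01 and -0.02 for all clusters.

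For the interaction of both agents limma called 0 of the 10 subunits and 0.895% of clusters, 0.725% higher and 0.17% lower. At an unadjusted p under 0.05, 2 subunits (Itga6 and Itga5) and 11.4% of clusters passed. Dox against SB, fitted only to order the levels, called 18.1% of clusters.

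Some subunits varied together and others inversely over the 12 arrays, which share treatment groups. The highest Pearson coefficients were 0.87 for Itga6 and Itga7, 0.83 for Itga7 and Itgb1, 0.80 for Itga5 and Itga7, 0.79 for Itgb1 and Itgb5 and 0.71 for Itga5 and Itga6. After subtracting group means they were 0.33, 0.77, 0.40, 0.08 and 0.16 in the same order. Of these 5 pairs Itga7 with Itgb1 had the highest coefficient within groups. For Itga7 and Itgav the coefficients were 0.56 over all arrays and 0.80 within groups. The lowest over all arrays were -0.80 for Itga3 and Itga6 and -0.72 for Itga3 and Itga5, at -0.17 and -0.23 within groups. Within groups the lowest was -0.80 for Itga7 and the dim Itga11, a pair at -0.01 over all arrays. SB replicate 3 was the highest SB array for Itga7, Itgb1 and Itgav and the lowest for Itga11. The coefficients within groups were not computed without that array.

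Itga6 was the only subunit whose group means spanned at least 1 log2 unit, and its pattern was compared with those of 849 other genes of that span. The genes most like it over the 12 arrays were Plk2 (Pearson 0.98), a polo-like kinase, Sorbs2 (0.97), an adaptor of Z-discs and adhesions, and Dysf (0.96), dysferlin, which acts in membrane repair of muscle. Within groups the coefficients were 0.81, 0.78 and 0.73. Plk2 had means of 9.14 ± 0.10, 9.81 ± 0.25, 8.49 ± 0.10 and 9.87 ± 0.07 in control, Dox, SB and SB+Dox. Sorbs2 measured 6.14 ± 0.17, 7.51 ± 0.49, 3.99 ± 0.18 and 6.71 ± 0.32 in the same order, and Dysf 6.35 ± 0.10, 7.38 ± 0.27, 5.45 ± 0.15 and 6.78 ± 0.29 (SD, n = 3). The Sorbs2 level in SB lay below the median cluster mean of 5.35 and is not shown to be above background.

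SB+Dox was not called different from Dox in Plk2, as in Itga6, and was lower in the other pair. Between these groups Plk2 differed by 0.06 (95% interval from -0.19 to 0.31, adjusted p = 0.847), Sorbs2 by -0.80 (adjusted p = 0.0199) and Dysf by -0.60 (adjusted p = 0.0171). The Sorbs2 call was lost without Dox replicate 3 (0.0966) or SB+Dox replicate 1 (0.102). The Dysf call was lost without Dox replicate 2 (0.0793), Dox replicate 3 (0.0875) or SB+Dox replicate 1 (0.0925).

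**Figure D3:**
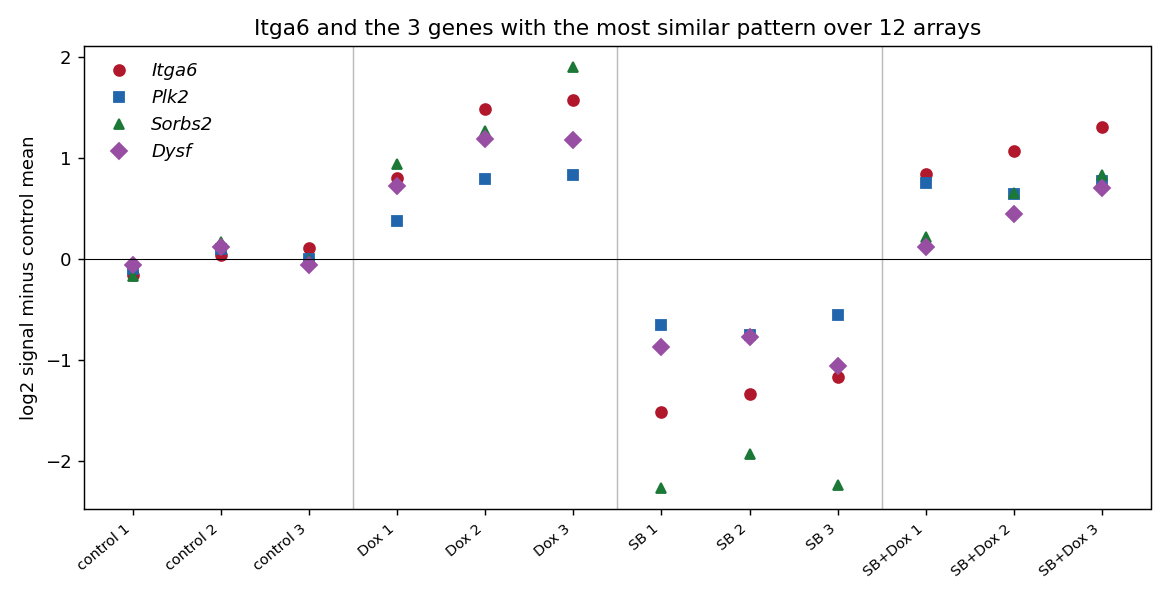
Log2 signal minus the mean of the control arrays (vertical axis) on each of the 12 arrays (horizontal axis) for Itga6, Plk2, Sorbs2 and Dysf. All 4 genes lie below the control mean on the SB arrays and above it on the Dox and SB+Dox arrays.

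The other 16 integrin subunits were all measured. Itgb6, an RGD-binding β chain best known from epithelia, and Itgb3, the β chain of another vitronectin receptor, were lower in SB than in control, by 1.13 (adjusted p = 0.00425) and 0.58 (adjusted p = 0.00300). Neither was called between SB and SB+Dox, and both were lower in SB+Dox than in Dox, Itgb6 with a log2 change of -2.13 (SE 0.21, adjusted p = 1.27e-05) and Itgb3 with one of -0.68 (SE 0.10, adjusted p = 4.54e-04). Itgb6 measured 5.68, 6.28 and 5.62 in control, 6.60, 7.37 and 6.63 in Dox, 4.56, 4.87 and 4.75 in SB and 4.44, 4.99 and 4.80 in SB+Dox. Its arrays with and without the inhibitor did not overlap, and its levels with the inhibitor lay below the median cluster mean of 5.35, as did the Itgb3 mean of 5.33 in SB+Dox. Such levels are not shown to be above background, so no fold is given against them.

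With doxycycline alone Itgb6 was 2.01-fold higher than in control (1.01, adjusted p = 0.00946), which did not pass without control replicate 1 (0.0504) or 3 (0.0515). Itga10, a collagen receptor chain of cartilage, was lower than control in Dox (-0.46, adjusted p = 0.00427) and in SB+Dox (-0.48, adjusted p = 0.00371), with means of 5.09 and 5.07, below the median cluster mean. Of the 16, 0 were higher and 2 lower in SB against control (median change -0.04), and 0 and 0 in SB+Dox against SB. The counts were 0 and 2 in SB+Dox against Dox, 1 and 1 in Dox against control, and 0 and 3 in SB+Dox against control. Of all clusters 6.38%, 7.11%, 10.4%, 5.31% and 5.26% were called in these comparisons, in the same order. Counts of 0 to 3 among 16 are too few to set against these shares.

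The linkers and kinases have proteins that join integrins to actin or signal from adhesions. Among 37 measured, 16 were lower and 0 higher in SB than in control, where 3.87% and 2.51% of all clusters were. Their median change was -0.28 beside 0.03 for all clusters. The count of 16 became 10 without control replicate 1. The linker, ligand and partner lists were chosen with earlier results of these data known. Tgfb1i1, the adaptor Hic-5 of focal adhesions, was 1.98-fold lower (-0.99, SE 0.10, adjusted p = 5.38e-05), and Actn1, the actin cross-linker α-actinin 1, 1.96-fold lower (-0.97, SE 0.14, adjusted p = 5.74e-04). In SB+Dox against SB, 4 of these 37 were higher and 0 lower, where 4.4% and 2.71% of all clusters were. Talin, encoded by Tln1, binds the tail of Itgb1. It was 1.66-fold above its SB level in SB+Dox (0.73, SE 0.13, adjusted p = 0.00279), and Flnc, the muscle filamin, 1.78-fold higher (0.83, SE 0.14, adjusted p = 0.00201). The count was 2 without SB+Dox replicate 3 and 6 without SB replicate 3.

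Of the linkers 4 were higher and 5 lower in SB+Dox than in Dox, where 6.97% and 3.43% of all clusters were. Vasp, which promotes actin assembly, was at -0.89 (adjusted p = 0.00214) and Zyx, zyxin, at 0.62 (adjusted p = 2.48e-04). In SB+Dox against control 0 linkers were higher and 7 lower, where 2.84% and 2.42% of all clusters were. Tgfb1i1 was at -1.10 (adjusted p = 2.47e-05) and the filamin Flna at -0.68 (adjusted p = 0.00112). The count of 7 ran from 3 without control replicate 2 to 10 without control replicate 3. In Dox against control 0 were higher and 5 lower, where 1.43% and 3.88% of all clusters were. The count of 5 ran from 1 without control replicate 1 to 8 without control replicate 3.

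Of 29 measured ligand genes, 11 were lower and 1 higher in SB than in control, where 3.87% and 2.51% of all clusters were. Their median change was -0.29. Thbs1, thrombospondin 1, was 15.3-fold lower (-3.94, SE 0.28, adjusted p = 2.80e-06) and Tnc, tenascin C, 6.59-fold lower (-2.72, SE 0.21, adjusted p = 4.76e-06). Col1a1, a chain of fibrillar collagen, was 5.60-fold lower (-2.49, SE 0.27, adjusted p = 6.10e-05) and Postn, periostin, 3.70-fold lower (-1.89, SE 0.19, adjusted p = 3.66e-05).

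Fn1, fibronectin and the ligand of Itga5, was singled out after its values were seen. Its signals were 11.97, 12.03 and 11.86 in control, 11.97, 11.91 and 11.95 in Dox, 10.88, 10.44 and 11.10 in SB and 10.73, 10.74 and 11.06 in SB+Dox. All 6 arrays with the inhibitor lay below all 6 without it, whereas Itga5 was low on the SB arrays only. Fn1 was lower than control by 1.15 in SB (adjusted p = 1.86e-04) and by 1.11 in SB+Dox (adjusted p = 2.92e-04). Its difference between SB+Dox and SB was 0.04, with a 95% interval from -0.26 to 0.34 (adjusted p = 0.898).

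The laminin chains, ligands of Itga6, Itga7 and Itga3, were also counted after their values were seen. Of 9 measured chains, 0 were called in SB against control, with changes from -0.23 to 0.10 (lowest adjusted p = 0.427). In SB+Dox against SB 0 were called, with changes from -0.22 to 0.40 (lowest adjusted p = 0.0666). The 9 chains are too few to set against the 6.38% and 7.11% of all clusters called there. Lama1, Lama3 and Lama4 had group means from 3.74 to 4.54, below the median cluster mean, and are not shown to be above background. The chain called elsewhere was Lamb3, a chain of epithelial laminin, 2.31-fold higher in Dox than in control (1.21, SE 0.14, adjusted p = 1.69e-04) and below its Dox level with both agents (-1.64, SE 0.14, adjusted p = 3.65e-06). Its means of 5.29 in SB and 5.09 in SB+Dox lay below the median cluster mean and are not shown to be above background.

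Among ligands in SB+Dox against SB 4 were higher and 4 lower, where 4.4% and 2.71% of all clusters were. Npnt, nephronectin, a basement membrane ligand with an RGD motif, measured 7.89, 8.21 and 7.89 in control, 7.94, 8.66 and 8.42 in Dox, 6.63, 6.91 and 7.12 in SB and 8.04, 8.29 and 8.53 in SB+Dox. Npnt was 2.64-fold above its SB level in SB+Dox (1.40, SE 0.18, adjusted p = 4.53e-04), while the collagen chains Col3a1 and Col6a1 were lower by 0.96 each (adjusted p = 0.00100 and 3.42e-04). Without SB+Dox replicate 3 the count of higher ligands was 1.

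In Dox against control 3 ligands were higher and 8 lower, where 1.43% and 3.88% of all clusters were. The lower ones were led by Col1a1 (-2.21, adjusted p = 1.87e-04), Col3a1 (-1.84, adjusted p = 9.20e-06) and Col6a1 (-1.20, adjusted p = 4.02e-05). The count of higher ligands ran from 2 without control replicate 3 to 6 without SB+Dox replicate 1. Compared with Dox, SB+Dox had 1 ligand higher and 7 lower, where 6.97% and 3.43% of all clusters were. Compared with control it had 1 ligand higher and 13 lower, where 2.84% and 2.42% of all clusters were.

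Of 22 membrane partners, such as tetraspanins, caveolins and syndecans, 3 were lower and 1 higher in SB than in control. Their median change was -0.03, and of all clusters 3.87% were lower and 2.51% higher. Slc3a2, the CD98 heavy chain that binds β chain tails, was 1.79-fold lower (-0.84, SE 0.09, adjusted p = 8.32e-05), and in SB+Dox it was 2.05-fold higher than in SB (1.03, SE 0.09, adjusted p = 4.02e-05). Counts of higher and lower partners were 1 and 2 in SB+Dox against SB and 3 and 2 in SB+Dox against Dox. They were 2 and 6 in Dox against control, and 0 and 4 in SB+Dox against control. Of all clusters 7.11%, 10.4%, 5.31% and 5.26% were called in these comparisons, in the same order. The 2 higher with doxycycline became 0 without control replicate 1, and the 2 lower in SB+Dox against SB became 0 without SB replicate 1.

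**Figure D4:**
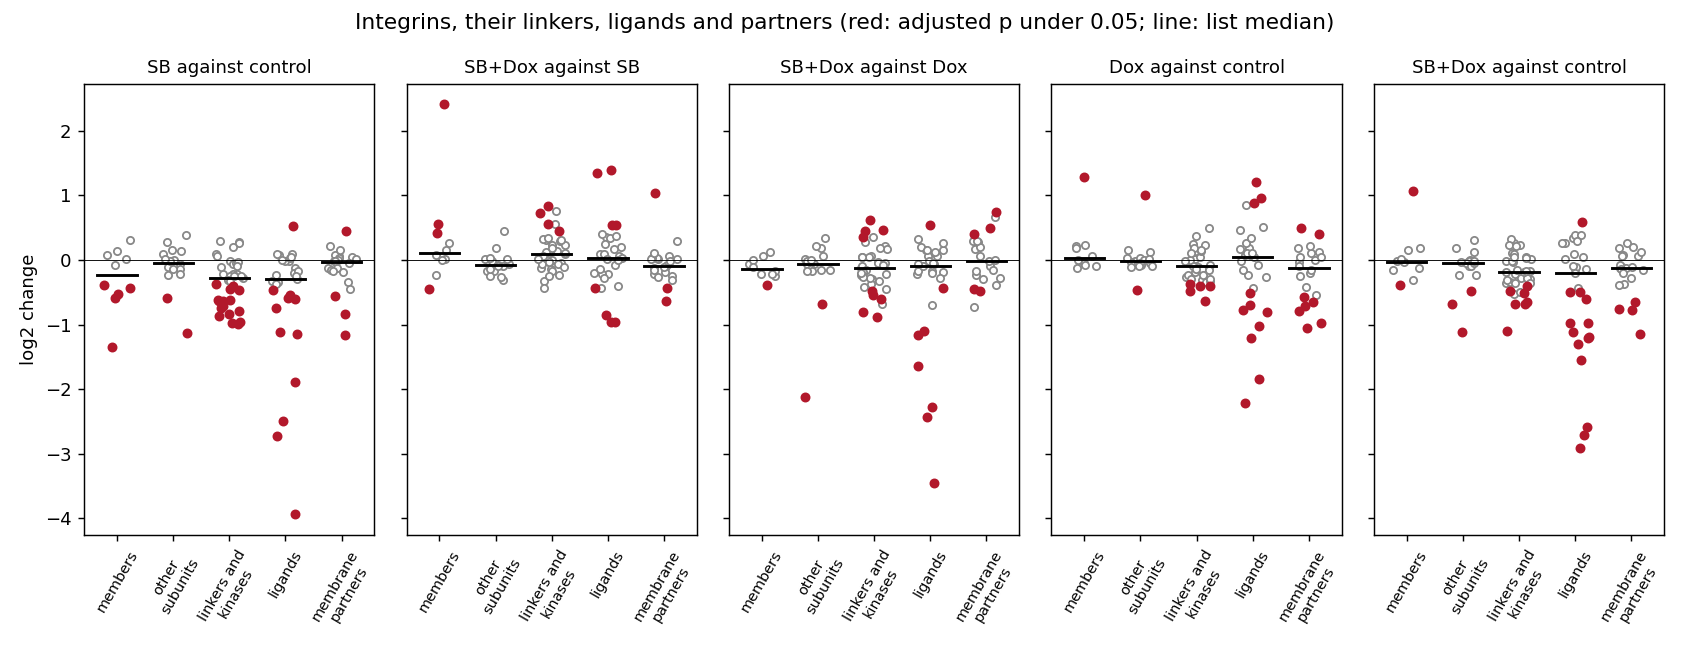
Log2 change of each gene (vertical axis, 1 point per gene) in 5 comparisons for the 10 integrin subunits and the 4 related lists. Filled red points had an adjusted p under 0.05, and black lines are list medians. Linkers and ligands lie mostly below 0 in SB against control, with medians of -0.28 and -0.29, and the ligands reach -3.94 there.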

How the data were processed

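Biotin-labelled RNA was read on Affymetrix arrays that cover whole transcripts. Per the submitters' processing notes the software was Affymetrix Expression Console with its RMA summary (the sources used here give no versions). The authors deposited log2 signals for 35557 transcript clusters on 12 arrays, ranging from 0.5 to 13.17 with 0 missing. Of these clusters 21789 carried 1 symbol (21698 matched by Entrez identifier to RefSeq), 1621 several and 12147 none, and only the first were tested.

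A model with 1 mean per group was fitted in R 4.3.3 by limma 3.58.1 (statmod 1.5.0 installed), and moderated with eBayes (8 residual and 6.56 prior degrees of freedom). The method was tried on simulated data for SB against control alone. Those arrays were drawn independently, so the trial does not cover effects shared by same-numbered arrays. Members, gene lists and the rule for naming genes were chosen with earlier results of these data known. From each related list up to 4 called genes with the largest change were named per comparison, and Fn1 and the laminin chains were added after their values were seen. Promoters are from RefSeq, GRCm38.p6.

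After removing group means, same-numbered arrays of SB and SB+Dox, numbered in the titles, correlated at 0.44, 0.19 and 0.49, each highest with its own number. Each Dox array also correlated best with the SB+Dox array of its own number, at 0.09, 0.28 and 0.15. In no pair of groups other than SB and SB+Dox did all same-numbered arrays exceed 0.1. A replicate block, other scalings, filters, weights and leaving out each array were tried as alternatives. No 2 arrays were identical.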

Additional observations from a re-analysis of the deposited data

Results flagged for a closer look

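For 6 genes of the related lists the doxycycline change was called different between cells with and without the inhibitor, and for none of the 10 subunits. The test was the interaction test of limma with Benjamini-Hochberg adjustment, by which 0.895% of all clusters were called. Each value is the log2 change from SB to SB+Dox minus that from control to Dox. It was 0.91 for Tln1 (adjusted p = 0.0324), 0.55 for the vinexin gene Sorbs3 (0.0387), 1.78 for Col1a1 (0.0434), 1.01 for the basement membrane gene Nid1 (0.0194), 0.82 for Slc3a2 (0.0150) and -1.41 for Lamb3 (0.00852). The call was lost under 11, 13, 11, 4, 3 and 1 of 21 alternatives, in that order. All 6 keep their direction under these alternatives. Among the subunits Itga6 missed the threshold at 1.12 (adjusted p = 0.0526) and passed under 8 of 21 alternatives.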

How the results depend on the processing

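Over 60 changes of the 10 subunits and up to 22 alternatives each, 56 of 1292 values fell on the other side of the threshold, 45 losing a call and 11 gaining one, and 0 reversed a called direction. With 1 array left out at a time the number of subunits called ran from 3 to 5 in SB against control (5 with all arrays), 2 to 4 in SB+Dox against SB (4), 0 to 1 in SB+Dox against Dox (1), 1 to 2 in SB+Dox against control (2) and 0 to 1 in the interaction (0), and it stayed at 1 in Dox against control. With every cluster tested the counts were 3, 2, 0 and 1 in the first 4 of these, and with only the 2 groups compared they were 3 and 2 in the first 2. In both settings Itga6, Itga7 and Itgb1 were called in SB against control, and Itga6 and Itga7 in SB+Dox against SB. Median centring gave 0 in SB+Dox against Dox and 1 in SB+Dox against control. In the interaction 1 subunit, Itga6, was called with the replicate block, with median centring, without clusters under percentile 25 or 50 and with a trended variance, and 2 with array weights, the second being Itga5 (adjusted p = 0.0293). The replicate block changed no other subunit's call. Itgb5 in SB+Dox against control passed with quantile normalisation (adjusted p = 0.0477) and array weights (0.0349). Each member has 1 cluster, so taking the cluster with the lowest mean changed none of them. All clusters called in SB against control (1390) ran from 779 to 1644 without 1 array and were 2794 with array weights and 876 with every cluster tested. In SB+Dox against SB (1550) they ran from 724 to 2521 and were 3076 with weights, and in Dox against control (1156) from 744 to 1305 and 1831. In SB+Dox against control (1146) they ran from 644 to 1351, 1935 with weights and 696 with every cluster, and in the interaction (195) from 27 to 352, with 421 under the block, 84 with quantile normalisation, 678 with weights and 6 with every cluster. The 3 arrays of a group and the absence of a measured background limit what can be said of dim subunits.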
